A study of Homo sapiens with 2 samples.

Results

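The actin, tropomyosin and myosin cytoskeleton was read in poly(A) RNA of human corneal epithelial cells, an established cell line (ATCC CRL-11515), as 78 of the 26506 genes in the deposited tables. Members were chosen by symbol alone: the 6 conventional actins, the tropomyosins, the heavy and light chains of myosin II, the unconventional myosins, the alpha-actinins, the transgelins and calponins, and the PDLIM proteins that bind alpha-actinin. Cells had been kept for 72 hours either in keratinocyte serum-free medium, labelled KSFM, or in a special medium labelled SP, in which DMEM/F12 carried 1 mM CaCl2, fetal bovine serum at 10%, EGF at 10 ng/mL and an antibiotic and antimycotic mixture. The labels do not list additives of KSFM, and they name no genetic change in either group. RNA of 3 cultures was pooled into 1 library per medium, so no difference below has a replicate spread or a p-value.

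Each ratio is SP over KSFM, computed on estimated counts scaled to counts-per-million values (CPM) with TMM factors. The interval in parentheses after a fold is the exact 95% Clopper-Pearson interval and covers counting error only. The interval after a change in the ratio of 1 gene to another is a large-sample one on the log scale, with the same limit. The call rule asked for 1 CPM in either library, a difference of at least 2-fold and an interval that excludes equality. "Higher" and "lower" without a call describe a ratio only. Levels of different genes are compared only in deposited transcripts-per-million values, written here as length-normalised units because tropomyosin symbols use the same 3 letters.

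The libraries held 21604652 counts in KSFM and 16900472 in SP. Epithelial markers CDH1 and EPCAM were at 197.48 and 300.83 length-normalised units in KSFM and at 176.16 and 449.48 in SP, whereas the corneal keratin KRT12 had 0 counts in both and KRT3 had 0 and 1. Of the 9 corneal and surface epithelium markers KRT15, a basal keratin, was called higher, at 60 and 160 counts (3.40-fold, 2.513 to 4.656). KRT5 was 0.66-fold (0.6091 to 0.7153), PAX6 had 69 and 73 counts, TP63 5 and 13, and KRT14 4 and 10. Of 6 smooth muscle markers, MYOCD and CASQ2 were at 0 in both libraries and the summed level was 15.0 and 22.75 CPM, 13.1 and 19.1 CPM of it from SYNM. DES was called higher, and SYNM, the other of the 2 above the filter, was not called. The 15 striated muscle markers summed to 67.2 and 72.7 CPM, of which the troponin gene TNNT1 made up 58.3 and 60.7, while MYOD1 was at 0 in both. Calls among the 5 above the filter were 1 upward and 0 downward. Fibroblast and keratocyte markers summed to 8.20 and 9.22 CPM, with LUM and KERA at 0. Endothelial markers summed to 0.973 and 15.5 CPM, of which CDH5 had 3 and 236 counts and PECAM1 2 and 15, while VWF had 6 and 2, KDR 10 in each, and TEK 0. CDH5 alone passed the filter and was called higher. Leukocyte markers, at 59.4 and 64.1 CPM, were mostly CD68, with CD3E at 0 in both and PTPRC at 1 and 0 counts. The 3 above the filter, CD68, LYZ and CD14, held 1 call upward and 1 downward. Over all genes the rule called 9.86% higher and 6.77% lower. Melanocyte markers summed to 4.82 and 6.44 CPM, with TYR at 0. In bulk RNA such as this, fewer cells of a type and less RNA per cell cannot be told apart.

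As background, actin monomers assemble into filaments that tropomyosins coat, alpha-actinins and calponins cross-link or stabilise, and myosins move along. Myosin II, built of heavy chains with essential and regulatory light chains, pulls filaments past each other and sets cell tension, and the unconventional myosins carry membranes and shape protrusions. In a surface epithelium this system supports the junctional belt, the stress fibres and the microridges of the apical membrane.

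Most cytoskeleton genes that were well detected were somewhat higher in SP, and few crossed the 2-fold mark. Together the 78 genes made up 0.881% of all counts in KSFM and 1.28% in SP, a 1.45-fold difference (1.44 to 1.458) that was 1.41-fold (1.40 to 1.421) without the beta- and gamma-actin genes. Of 52 members that reached 1 CPM, 6 were called higher, 1 was called lower and 45 were neither. Those reported here were PDLIM1, ACTN4, MYO18A, CNN2 and PDLIM5, and the lower one was the skeletal myosin gene MYH1. The 2-fold rule called 16.6% of all genes in either direction. Calls upward made up 11.5% of the measured members, near the 9.86% of 13632 genes called higher, and calls downward made up 1.92% of them beside 6.77% of all genes. No member passed a 4-fold rule, which 4.18% of all genes did.

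The members' median log2 ratio was 0.21, with quartiles at −0.16 and 0.61, and the median of all genes was 0.00, with quartiles at −0.41 and 0.43. All 21 members with a mean of at least 100 CPM over both libraries had a ratio above 1, at a median log2 ratio of 0.52. Of the 2398 genes at that level 53.8% did, and their median was 0.04. Among the 21, TPM4 at 1.015-fold (0.9815 to 1.05) has an interval that includes equality. The same 21 members stayed above 0 under each scaling of the counts, on the length-normalised values and after centring of those values on all genes. TPM4 did so by only 0.001 under upper quartile scaling. Rescaling a set already chosen is no separate support for its direction. The level was chosen after the values were seen and falls just above PDLIM7, at 101.6 and 93.1 CPM with a ratio of 0.916. At a mean of 10 CPM or more 31 of 39 members lay above 1 and 8 below, beside 49.9% of all genes above. A member can reach such a mean through the medium in which it is higher, as CNN2, MYO1E, PDLIM1 and PDLIM5 did for 100 CPM. Of the 26 members under the 1 CPM filter, 6 had no count in either library (MYL4, MYL10, MYO18B, MYO1H, MYO3A and MYO3B), and a count of 0 allows up to 0.171 CPM in KSFM and 0.218 CPM in SP at 95% confidence.

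**Figure D1:**
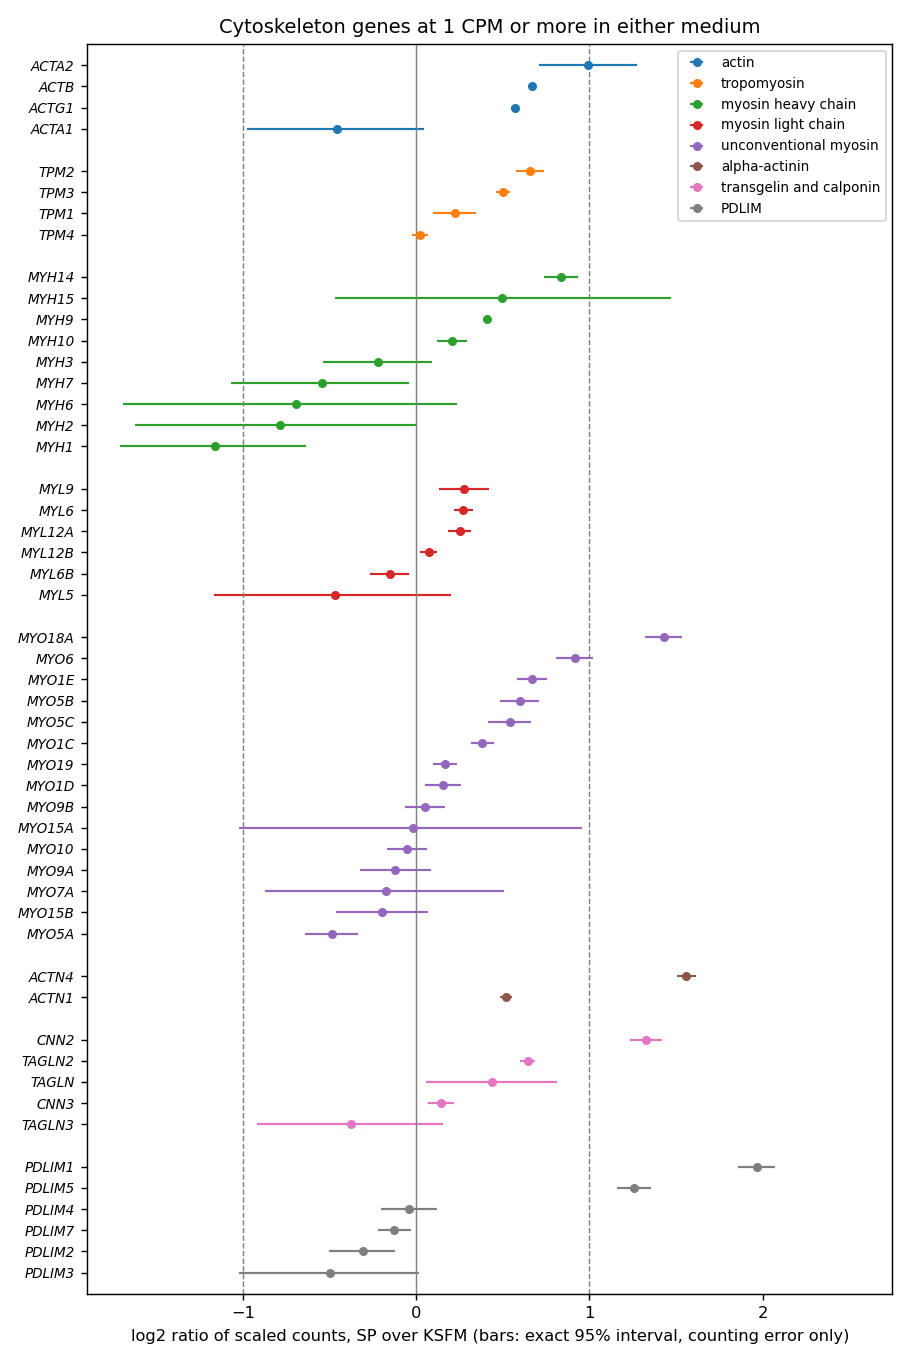
Log2 ratio of scaled counts, SP over KSFM (x axis), for the reported cytoskeleton genes at 1 CPM or more (y axis, grouped by family). Points are the single value per gene, bars the exact 95% interval for counting error, and dashed lines mark 2-fold either way. PDLIM1, at 1.965, lies furthest right and MYH1, at −1.16, furthest left.

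The cytoplasmic actins dominated the family and were both higher in SP without passing 2-fold. ACTB, which encodes beta-actin (chromosome 7, 5527147 to 5563784 in GENCODE release 29 on GRCh38, as for all gene spans here), had 29369 counts in KSFM and 36593 in SP, or 1361 and 2163 CPM, a 1.59-fold ratio (1.565 to 1.614). ACTG1, which encodes gamma-actin (chromosome 17, 81509971 to 81523847), had 27097 and 31592 counts and was 1.49-fold higher (1.463 to 1.511). In length-normalised units ACTB stood at 1457.08 and 2625.08 and ACTG1 at 1220.55 and 2053.49, so each library held somewhat more beta- than gamma-actin RNA. The ACTG1 to ACTB ratio moved from 0.838 to 0.782. Both genes had fractional counts in KSFM, and the pseudogene ACTG1P17 had them in both libraries, at 18.79 and 14.41, so the assignment of some reads is uncertain.

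Muscle actins were scarce. ACTA2, the smooth muscle actin gene often used to mark myofibroblasts, had 172 and 268 counts, at 9.29 and 20.81 length-normalised units, and its 1.99-fold ratio (1.635 to 2.421) fell just short of the rule on counts. On length-normalised values its log2 ratio was 1.08 with a pseudocount of 1, past 2-fold, and after centring on all genes it was 0.93, short of it. ACTA2 overlaps FAS on the opposite strand, FAS had 376 and 829 counts, and although the library kit marks strand, the sources used here do not say whether counting used it. ACTA1, the skeletal form, had 93 and 53 counts, a 0.727-fold ratio (0.5086 to 1.029) with an interval that includes equality. ACTC1, the cardiac form, had 15 and 4 counts, ACTG2, the enteric smooth muscle form, had 1 in each library, and no fold is given for the latter. The 4 muscle actins together made up under 1% of the family's length-normalised sum in either medium.

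**Figure D2:**
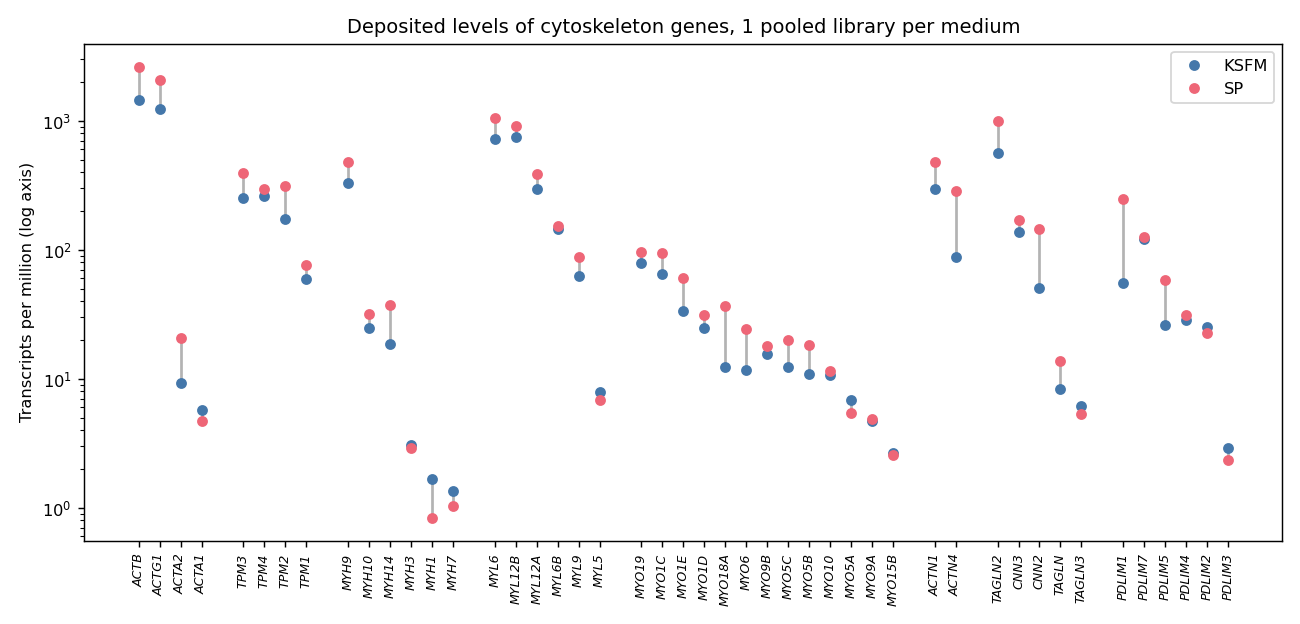
Deposited transcripts-per-million values (TPM, the length-normalised units of the text) on a log axis (y) in the KSFM library (blue) and the SP library (red) for reported members at 1 CPM or more and at least 1 on this scale in either, grouped by family (x). A grey line joins the values of a gene, and the actins ACTB and ACTG1 are the highest pair, from 1457.08 to 2625.08 and from 1220.55 to 2053.49.

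The 4 tropomyosin genes differed in how far they moved, and none passed the rule. TPM2 had 2230 counts in KSFM and 2754 in SP, a 1.57-fold ratio (1.489 to 1.666). On 9185 and 10178 counts TPM3 had a ratio of 1.41 (1.374 to 1.454), and TPM1 had one of 1.17 (1.071 to 1.271). TPM4 was level at 358.7 and 364.1 CPM, with a ratio of 1.01 (0.9815 to 1.05) whose interval includes equality. The balance within the family differed between media. TPM4 was the largest share of the length-normalised sum in KSFM at 35%, ahead of TPM3 at 33.7% and TPM2 at 23.4%. In SP it held 27.3%, behind TPM3 at 36.6% and TPM2 at 29%. The TPM4 to TPM3 ratio in SP was 0.718 times that in KSFM (0.687 to 0.75), a comparison that does not depend on library scaling. The pseudogene TPM3P9 had 117 and 104 counts, which were whole.

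Among the heavy chains of myosin II, the motor of contraction, the non-muscle forms accounted for nearly all RNA. MYH9, encoding non-muscle myosin IIA, had 28524 and 29637 counts, 1322 and 1752 CPM, a 1.32-fold ratio (1.304 to 1.347), and held 86.3% and 86.4% of the family's length-normalised sum. MYH14, encoding myosin IIC, had 1465 and 2051 counts, a ratio of 1.78 (1.669 to 1.911). MYH10, encoding myosin IIB, had 2199 and 1992, a ratio of 1.16 (1.087 to 1.228). In KSFM the myosin IIB gene was above the myosin IIC gene, at 24.75 against 18.59 length-normalised units, and in SP the order was the reverse, at 31.8 against 37.0. Relative to MYH9, MYH14 was 1.35 times as abundant in SP as in KSFM (1.26 to 1.44) and MYH10 0.872 times (0.819 to 0.928).

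The striated muscle heavy chains were at trace level, and 5 of the 6 measured had ratios below 1. MYH1, a fast skeletal myosin gene on chromosome 17 (10492307 to 10518543), had 117 and 41 counts, 5.42 and 2.42 CPM, and was 2.24-fold lower (1.556 to 3.277). It was the only member called lower. On length-normalised values it moved from 1.68 to 0.83, a ratio of 0.494 without a pseudocount. With a pseudocount of 1 its log2 ratio was −0.55, which does not pass the rule. Its neighbour MYH4 had 18 and 3 counts, below the filter, a ratio of 0.213 (0.04011 to 0.7281). MYH7 had 95 and 51 counts, a ratio of 0.685 (0.4774 to 0.9721). The intervals of MYH2 at 0.58 (0.3237 to 1.004), MYH3 at 0.858 (0.6899 to 1.065) and MYH6 at 0.617 (0.3096 to 1.178) include equality. MYH15 went the other way, with 19 and 21 counts and a ratio of 1.41 (0.7214 to 2.772), and below the filter MYH7B had 7 and 11 counts and MYH16 6 and 5. Also below it, MYH13 had 19 and 7 counts, a ratio of 0.47 (0.1669 to 1.167), and MYH8 had 4 and 1. The counts of MYH1, MYH2, MYH3, MYH4, MYH6, MYH7, MYH8 and MYH13 were fractional in the deposited table. Some of their reads were thus divided with other genes, which the table does not name, and no single value among them is certain. MYH11, the smooth muscle heavy chain and a defining marker of that tissue, had 2 counts in each library.

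The light chains that pair with non-muscle myosin II had ratios from 0.899 to 1.21, and none was called. MYL6, the essential light chain gene, had 5976 and 5659 counts, a 1.21-fold ratio (1.164 to 1.253). MYL12A and MYL12B, the regulatory light chain genes whose phosphorylation switches the motor on, were 1.19-fold (1.135 to 1.245) and 1.05-fold (1.017 to 1.086) higher. MYL9, a regulatory chain abundant in smooth muscle and also made by non-muscle cells, stood at 37.4 and 45.1 CPM, 1.21-fold (1.094 to 1.336). MYL6B, at 1560 and 1099 counts, was 0.899-fold (0.831 to 0.9712), the only one of 15 non-muscle isoforms in these families with a ratio below 1, although on length-normalised values it turned, from 145.43 to 151.88. It overlaps MYL6 on the same strand, and both genes had whole counts. The cardiac and skeletal light chain genes MYL1, MYL2, MYL3 and MYL7 had at most 11 counts in either library. Summed over the family, light chains were 1.12-fold higher (1.094 to 1.14) and heavy chains 1.32-fold (1.304 to 1.344). In length-normalised units the light chain sum went from 1982 to 2579 and the heavy chain sum from 377.8 to 556.6.

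Isoforms of non-muscle cells and of muscle were also read as groups across families. The 15 non-muscle isoforms, with MYL9 counted among them, had 2 calls upward and 0 downward. Calls upward made up 13.3% of them, beside 9.86% of all genes, and 6.77% of all genes were called lower. These 15 genes are too few to set their calls apart from that background. Their median log2 ratio was 0.41, with 14 of 15 above 0, whereas 6811 of all measured genes lay above 0 and 6821 below. The median of the non-muscle isoforms lay between 0.38 and 0.56 under every scaling and filter tried. Of 27 muscle isoforms 10 were measured, with 1 called lower and 0 higher, beside 6.77% and 9.86% of all genes, which is too few genes to set apart from that background. Their median of −0.48 stayed negative under each scaling but was 0.99 with a 10 CPM filter, which leaves ACTA2 alone. The muscle isoforms summed to 37.8 length-normalised units in KSFM and 51.1 in SP, against 6149 and 9872 for the non-muscle ones, so on that scale the muscle sum and the muscle median point in opposite directions. The difference between these medians was not tested.

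Among the unconventional myosins 16 of 25 genes were measured. MYO19, a myosin of the mitochondrial surface, stood at 78.65 and 95.96 length-normalised units and was 1.12-fold higher (1.071 to 1.177). MYO18A (chromosome 17, 29071124 to 29180412), a relative of myosin II associated with the Golgi and with contractile filaments, had 1074 and 2267 counts, a 2.69-fold ratio (2.502 to 2.897). It contains TIAF1 on the same strand, which had 3 and 20 counts, and the counts of both genes were fractional.

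None of the other unconventional myosins described here was called. MYO6, which moves towards the minus end of filaments and acts in endocytosis, was at 53.7 and 101.2 CPM, 1.88-fold (1.749 to 2.033), the next below the threshold, and on length-normalised values with a pseudocount of 1 it passed. MYO1E was 1.59-fold (1.499 to 1.688) and MYO1C 1.30-fold (1.244 to 1.366) higher. The class V transport motors split: MYO5B and MYO5C, the epithelial forms that carry recycling and secretory vesicles, had ratios of 1.51 (1.40 to 1.635) and 1.46 (1.334 to 1.586), and MYO5A was 0.713-fold (0.6412 to 0.7925), on 980 and 548 counts. MYO10, the filopodial motor, had 1415 and 1071 counts, a ratio of 0.965 (0.8908 to 1.046), and MYO9A and MYO9B, which carry a GTPase-activating domain, had ratios of 0.92 (0.7991 to 1.059) and 1.04 (0.9567 to 1.122), all with intervals that include equality. The brush border and sensory hair cell myosins MYO1A, MYO7B, MYO3A, MYO3B and MYO15A had at most 22 counts in either library. MYO7A, also of sensory hair cells, had 46 and 32 counts, a ratio of 0.887 (0.5468 to 1.424). MYO1G, a myosin of blood cells, had 14 and 2 counts, below the filter, a ratio of 0.182 (0.0201 to 0.7933).

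**Figure D3:**
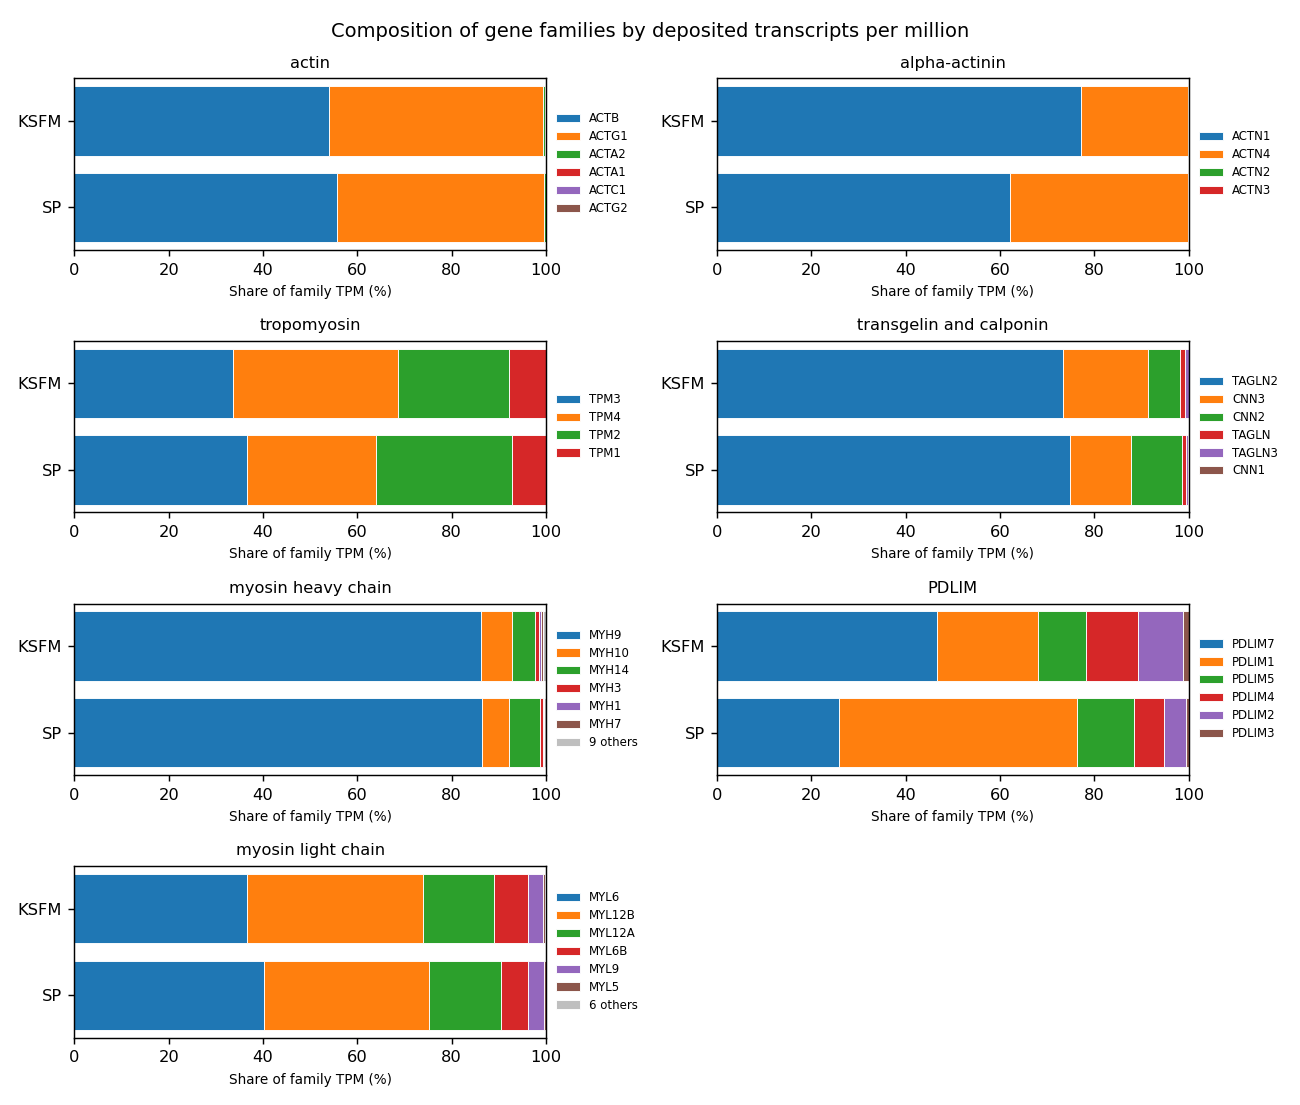
Share of a family's summed transcripts-per-million values (x axis, percent) held by its members in KSFM (upper bar) and SP (lower bar). PDLIM1 goes from 21.4% to 50.6% of the PDLIM family and ACTN4 from 22.7% to 37.7% of the alpha-actinins, while MYH9 stays at 86.3% and 86.4% of the heavy chains.

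The alpha-actinins, which cross-link filaments and anchor them to junctions and adhesions, shifted towards ACTN4. ACTN4 (chromosome 19, 38647649 to 38731583) had 3944 counts in KSFM and 9114 in SP, 182.8 and 538.6 CPM, a 2.95-fold ratio (2.839 to 3.06). ACTN1 had 12604 and 14135 counts, a 1.43-fold ratio (1.396 to 1.465), and remained the more abundant form at 295.84 and 474.0 length-normalised units against 87.12 and 287.33. The ACTN4 to ACTN1 ratio went from 0.294 to 0.606, a 2.06-fold change (1.97 to 2.15) that is free of library scaling. The muscle forms ACTN2 and ACTN3 had 16 and 7, and 6 and 3 counts.

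In the calponin and transgelin group the abundant member was TAGLN2, an actin-bundling protein of many cell types, at 559.06 and 996.87 length-normalised units, 1.56-fold higher (1.518 to 1.607). CNN2 (chromosome 19, 1026581 to 1039068), the calponin of non-muscle cells that stabilises filaments under tension, had 1426 and 2808 counts, a 2.51-fold ratio (2.355 to 2.678). CNN3, its acidic relative, had 3241 and 2806 counts, a ratio of 1.10 (1.049 to 1.162). CNN3 thus exceeded CNN2 by 136.98 to 50.88 length-normalised units in KSFM, and the gap narrowed to 170.89 against 144.37 in SP. The smooth muscle forms were low: TAGLN had 117 and 124 counts, 1.35-fold (1.041 to 1.755), and CNN1 had 0 and 1. TAGLN3, the neuronal form, had 81 and 49 counts with an interval that includes equality.

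The PDLIM proteins, which carry a PDZ and 1 or more LIM domains and dock on alpha-actinin, held the largest ratio among members past the 1 CPM filter. PDLIM1 (chromosome 10, 95237572 to 95291024), a partner of ACTN1 and ACTN4 on stress fibres, had 968 and 2964 counts, 44.9 and 175.2 CPM, a 3.91-fold ratio (3.63 to 4.203). PDLIM5 (chromosome 4, 94451857 to 94668227) had 1351 and 2533 counts, a 2.39-fold ratio (2.237 to 2.556). PDLIM7 stood at 101.6 and 93.1 CPM, 0.916-fold (0.8584 to 0.9781), and on length-normalised values its direction turned, from 121.11 to 125.45. PDLIM2 was 0.807-fold (0.7067 to 0.9203), PDLIM4 0.971-fold (0.8685 to 1.086) and PDLIM3, the muscle form, 0.709-fold (0.4911 to 1.012). PDLIM7 was the leading member in KSFM with 46.7% of the family, and PDLIM1 in SP with 50.6%. The PDLIM7 to PDLIM1 ratio in SP was 0.235 times its value in KSFM (0.213 to 0.259).

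PDLIM5 also stood out in a readout that the ratio of counts does not use. The counts per length-normalised unit give the average effective transcript length that the authors' quantification assigned to a gene in a library. Relative to the median of 9112 genes with at least 200 counts and 5 units in both libraries, this length was 1.21 times as large in SP as in KSFM for PDLIM5, where the middle 95% of those genes lay between 0.946 and 1.054. Only 1 other of the 36 members with a value lay outside that range, MYL6 at 0.946, and 9071 of the 9112 genes lay below PDLIM5. The same difference makes the PDLIM5 ratio depend on the unit: from 26.32 to 58.58 units it was 2.23-fold, and after centring on all genes with a pseudocount of 1 its log2 ratio was 0.975, under the threshold.

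Promoter sequence was read for 62 of the 78 members from RefSeq (GRCh38.p14), as the 250 bases before each annotated start. The CArG box, the site of serum response factor (SRF), which together with actin-sensing coactivators is known to drive many cytoskeleton genes, was searched by its consensus, which reads the same on both strands. It occurred in 10 of the 62 genes (16.1%), beside 1.44% of 27305 genes in that table and 1.16% of 35116 windows. Measured members with it were ACTA1, ACTG1, ACTN1, CNN2, MYO1E and TPM4, whose log2 ratios ran from −0.46 in ACTA1 through 0.02 in TPM4 to 1.33 in CNN2. Their median was 0.54, and 0.19 in the 38 measured members with a sequence and no match, a difference that was not tested. Of the 5 higher members with a sequence, 1 had a match. The windows of ACTG1 and CNN2 are shown because each holds a match, 94 and 89 bases before the start, in genes that differed by 1.49-fold and 2.51-fold, and that of PDLIM1 because it had the largest ratio and no match. The RefSeq start of ACTG1 lies inside the longer gene span given above. Capitals mark the CArG box in ACTG1 (chr17:81512800-81513049, minus strand) and CNN2 (chr19:1026358-1026607, plus strand), and in PDLIM1 (chr10:95291004-95291253, minus strand) the GC box GGGCGG or its complement CCGCCC, matches of which may overlap.
ACTG1: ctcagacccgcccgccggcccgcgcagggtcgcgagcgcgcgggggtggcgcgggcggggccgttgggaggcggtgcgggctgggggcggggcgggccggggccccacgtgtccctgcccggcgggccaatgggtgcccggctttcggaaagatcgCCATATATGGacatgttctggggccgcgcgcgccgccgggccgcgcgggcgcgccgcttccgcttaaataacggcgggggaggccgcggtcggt
CNN2: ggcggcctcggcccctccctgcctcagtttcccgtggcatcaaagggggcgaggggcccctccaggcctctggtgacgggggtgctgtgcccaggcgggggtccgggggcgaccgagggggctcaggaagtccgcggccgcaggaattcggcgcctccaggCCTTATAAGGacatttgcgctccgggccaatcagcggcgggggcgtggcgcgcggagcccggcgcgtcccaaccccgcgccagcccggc
PDLIM1: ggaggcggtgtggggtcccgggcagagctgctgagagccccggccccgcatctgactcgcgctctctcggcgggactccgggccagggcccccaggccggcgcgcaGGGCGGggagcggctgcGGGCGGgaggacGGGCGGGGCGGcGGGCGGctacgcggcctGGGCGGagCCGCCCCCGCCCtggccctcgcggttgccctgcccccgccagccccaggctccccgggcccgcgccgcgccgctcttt
The PDLIM1 window held 8 GC box matches. That motif was present in 69.4% of the 62 member genes and in 46.2% of all genes in the table, and in 4 of the 5 higher members. The letters of the TEAD factor motif, GGAATG or CATTCC occurred in 22.6% of member genes, 14.3% of all genes and 0 of the 5 higher members. Such matches describe letters in a window and show nothing of binding.

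Other genes of the actin system were read from lists that hold no member of the families above. Nucleation and elongation factors numbered 27 above the filter. Calls were 4 upward and 0 downward, and the median log2 ratio was 0.42. The formins DIAPH2, DAAM1 and DIAPH3, which elongate unbranched filaments, had ratios of 2.28 (1.946 to 2.663), 2.22 (2.04 to 2.408) and 2.17 (1.997 to 2.349). The other measured formins were not called, with ratios from 0.762 in FMNL1 to 1.907 in INF2. No subunit of the branching Arp2/3 complex was called, with ratios from 0.763 in ARPC3 to 1.525 in ARPC5. For monomer binding, severing and capping, 4 of 21 were higher and 0 lower (median 0.27). CAP2, a cyclase-associated protein that recycles monomers, had 68 and 286 counts, a ratio of 5.36 (4.105 to 7.095), the monomer-sequestering thymosin TMSB4X was 2.27-fold (2.205 to 2.338) and EPS8, which caps and bundles filaments, 2.11-fold (1.997 to 2.221) higher. Cofilin, CFL1, was not called, at 1.14-fold, nor was profilin, PFN1, at 0.804-fold.

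Crosslinkers and membrane linkers had 6 of 18 higher and 0 lower (median 0.47). The membrane linkers MSN and EZR, moesin and ezrin, had ratios of 2.70 (2.551 to 2.863) and 2.30 (2.238 to 2.372), the bundler PLS3 2.49-fold (2.37 to 2.62) and the stress fibre protein SYNPO 2.23-fold (1.945 to 2.564). Fascin, FSCN1, at 0.629-fold and smoothelin, SMTN, at 0.564-fold were not called. Myosin II control genes were 5 higher and 1 lower of 21 (median 0.51). RHOB, a small GTPase, was 4.09-fold higher (3.748 to 4.464), the light chain kinase MYLK 2.64-fold (2.243 to 3.104) and RND3, an atypical small GTPase that opposes stress fibre assembly, 2.05-fold (1.944 to 2.167). The kinases ROCK1 and ROCK2 were 1.24-fold and 1.55-fold, and the lower gene was MYLK3, on 31 and 7 counts.

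Focal adhesion and LIM domain genes were 4 higher and 0 lower of 20 (median 0.07). LIMA1, which bundles filaments in epithelia, was 3.10-fold higher (2.966 to 3.246), vinculin, VCL, 2.21-fold (2.09 to 2.327), ILK 2.11-fold (1.939 to 2.297) and LASP1 2.02-fold (1.93 to 2.111). FHL3, CSRP2 and TGFB1I1 were at 0.524-fold, 0.57-fold and 0.689-fold. SRF itself was 0.801-fold (0.7413 to 0.865), its coactivator genes MRTFA and MRTFB, listed under the older symbols MKL1 and MKL2, were 0.783-fold (0.6969 to 0.8791) and 1.34-fold (1.22 to 1.467), and MYOCD was at 0. Partners of the unconventional myosins were 2 higher and 0 lower of 12 (median 0.46): OPTN, a MYO6 adaptor, was 2.58-fold (2.405 to 2.763) and MLPH, which links MYO5A to vesicles, 2.12-fold (1.933 to 2.324) higher. The lists' shares of higher calls, from 0% to 33.3%, stand beside 9.86% for all genes. Their shares of lower calls, from 0% to 4.76%, stand beside 6.77% for all genes. No list was tested against these shares. The uncalled genes given from these lists were chosen after their values were seen.

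**Figure D4:**
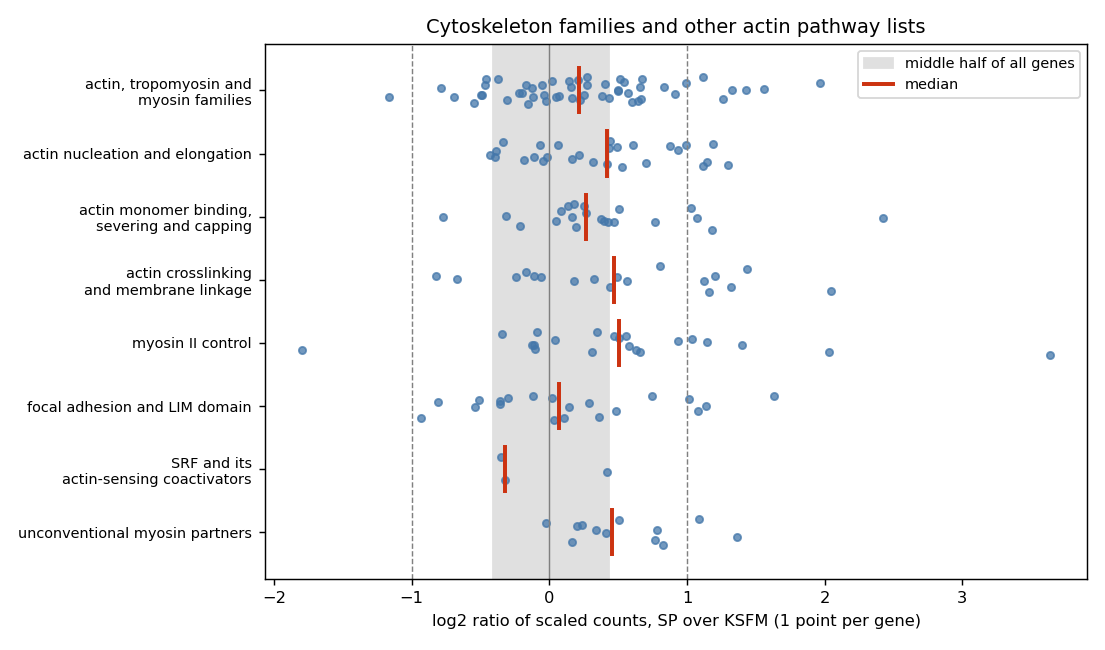
Log2 ratio of scaled counts, SP over KSFM (x axis), for each measured gene (points) of the cytoskeleton families and of 7 other actin pathway lists (y axis). Red bars are list medians, the grey band spans the quartiles of all genes, from −0.41 to 0.43, and dashed lines mark 2-fold; the SRF list, at −0.32, has the only median below 0.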

How the data were processed

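Each library's table held estimated counts and TPM (transcripts-per-million values) that the authors deposited, per the labels. The submitters' processing notes name RSEM, the GRCh38 build, HISAT2 2.1.0, FastQC 0.11.9 and fastp 0.20.0, with no role or order. Neither the version of RSEM nor the annotation nor the use of strand is stated in these sources. RSEM divides reads that match several genes, and 11.3% of genes in KSFM and 8.05% in SP had fractional estimated counts as deposited, 20 members among them. Here counts were rounded and scaled with edgeR 4.0.16 TMM factors (0.999 and 1.00) in R 4.3.3. Ratios carried exact 95% Clopper-Pearson intervals conditional on the summed counts, from scipy 1.17.1. Reads carry no molecular identifiers, so intervals and limits cover counting error only. At 100 counts in each library the interval spans about 0.415 on the log2 scale either way.

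The fold of a gene at 0 in 1 library used 3 counts in its place, and none was given where both were at or under 3. The scripts were tested on simulated counts. Members and lists were chosen with earlier results of these data known. Actins, called members and the 2 highest members of each family by mean TPM were named by rule, as were up to 4 called genes of at least 10 CPM per list, and other members were named for their roles with values known. Alternatives were total count, upper quartile and DESeq2 1.42.0 scaling, TPM with pseudocounts of 1 and 0.1, filters of 10 CPM or none, a 4-fold rule, and an interval wholly beyond 2-fold. TPM centred on the median of all genes was added after seeing the data. Gene spans came from GENCODE release 29. A called member is not reported here, though counts and sums over members include it.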

Additional observations from a re-analysis of the deposited data

How the results depend on the processing

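With 1 library per medium, nothing here separates the medium from differences between the pooled cultures. No paired analysis was possible because each medium has a single library. The 7 called members were the same under total count, upper quartile and DESeq2 scaling, and none of their ratios reversed under any alternative run. Under the 4-fold rule the counts were 0 members higher and 0 lower, 408 and 162 of all genes higher and lower, 0 higher for nucleation, focal adhesion and myosin partner genes, 1 higher for monomer binding and for crosslinking genes, and 2 higher and 0 lower for myosin II control. With intervals wholly beyond 2-fold they were 0 members lower, 837 and 395 of all genes higher and lower, 1 nucleation, 2 monomer binding, 2 focal adhesion and 1 myosin partner gene higher, and 3 higher and 0 lower for myosin II control. With a 10 CPM filter, which tests fewer genes, 0 members were lower, 788 and 446 of all genes were higher and lower, myosin II control had 3 and 0, and the members' median log2 ratio was 0.382. With no filter 3 members were lower. On TPM values, where the median of all genes shifts by 0.149 with a pseudocount of 1 and by 0.165 with 0.1, no member was lower (0), 349 and 605 of all genes were lower, and the members' median was 0.333 and 0.370. With a pseudocount of 1 myosin II control had 0 lower. Centred TPM gave 0 members, 536 of all genes and 0 myosin II control genes lower. The cause of the differences on TPM values was not tested. MYH1 lost its call on TPM values with either pseudocount, with the 10 CPM filter and with intervals wholly beyond 2-fold, and PDLIM5 on centred TPM.

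Family medians were less stable where members are few or scarce. The heavy chain median of −0.22 was 0.41 with the 10 CPM filter, the alpha-actinin median of 1.04 was −0.07 with no filter, and the PDLIM median of −0.08 was 0.09 on uncentred TPM values.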

Other observations

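Among genes read only as checks of the libraries, ACTBL2, an actin-like gene, had 1 count in KSFM and 22 in SP, and CDH5, the endothelial cadherin gene, had 3 and 236. DES, the muscle intermediate filament gene, had 22 and 47. These were singled out after their values were seen.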
